A study of Drosophila melanogaster with 2 samples.

Results

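The regions described here are 1153 strong Ash1 regions that lie in 196 dense clusters of the Drosophila melanogaster genome. They were selected on the pooled signal alone. A candidate region was called strong where the deposited pooled list gave it a signal value of at least 55, summits no more than 3000 bp apart on one chromosome were joined into a chain, and chains of at least 4 summits were kept. Of the 30000 candidates in the pooled list, 5137 (17.1%) were strong, and 22.4% of the strong regions were in a cluster. Chains inside the Antennapedia and bithorax Hox gene complexes on 3R were left out. The former held 2 chains with 9 regions and the latter 7 chains with 52 regions. The other 3984 strong regions, those 61 included, serve below as the background.

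The data are chromatin immunoprecipitation with sequencing (ChIP-seq) of Ash1 from whole embryos of both sexes collected over 0 to 24 h. All embryos came from a transgenic line that stably expresses Ash1 with GFP fused to its C terminus. The signal comes from a mixture of all embryonic stages and cell types. Whether untagged Ash1 was also precipitated is not stated. The single group held 2 biological replicates, numbered 2 and 4, with no other genotype, treatment or time. One free-text field labels these samples as controls of input DNA. The antibody (ash1), assay type and peak calls describe immunoprecipitated chromatin, and the samples are read that way here.

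Ash1 is a trithorax-group protein, a histone methyltransferase that places methyl groups on lysine 36 of histone H3. Trithorax-group proteins keep developmental genes active after the transient factors that first switched them on have gone, and they counteract the Polycomb group, which keeps the same kinds of genes silent. In the fly embryo the best known Ash1 targets are the Hox genes, whose complexes were left out here. Many DNA elements that recruit these proteins lie inside large introns or far from promoters, and contain short repeats such as GAGAG, a core recognised by GAGA factor (encoded by Trl).

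The following 10 regions show what DNA lay under the summits. Each sequence is the summit base with 100 bases on either side, from the plus strand of the RefSeq copy of the dm6 assembly, chosen where no annotated exon overlapped the window. Capitals mark GAGAG, the repeat GTGTGT or the pentamer GCCAT on either strand. The first 3 come from the strongest clustered regions that met this condition, the next 4 from the strongest such summits of the 4 clusters with most summits, and the last 3 from the cluster at Kdm2, the only cluster in which all windows held GAGAG.
ush, intron, signal 808.9: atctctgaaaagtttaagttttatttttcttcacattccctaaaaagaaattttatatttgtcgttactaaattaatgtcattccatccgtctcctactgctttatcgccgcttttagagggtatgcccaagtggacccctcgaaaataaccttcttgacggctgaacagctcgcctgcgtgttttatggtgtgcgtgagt
ph-p, intron, signal 603.9: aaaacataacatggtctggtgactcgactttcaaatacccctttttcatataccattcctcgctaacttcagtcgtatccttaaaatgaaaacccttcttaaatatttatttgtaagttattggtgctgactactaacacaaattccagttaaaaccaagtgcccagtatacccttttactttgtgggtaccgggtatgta
fkh, upstream, signal 533.8: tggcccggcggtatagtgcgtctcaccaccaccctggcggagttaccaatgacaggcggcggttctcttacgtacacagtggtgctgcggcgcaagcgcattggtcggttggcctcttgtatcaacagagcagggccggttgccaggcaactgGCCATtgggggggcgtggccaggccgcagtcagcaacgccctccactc
CG14434, intron, signal 200.1: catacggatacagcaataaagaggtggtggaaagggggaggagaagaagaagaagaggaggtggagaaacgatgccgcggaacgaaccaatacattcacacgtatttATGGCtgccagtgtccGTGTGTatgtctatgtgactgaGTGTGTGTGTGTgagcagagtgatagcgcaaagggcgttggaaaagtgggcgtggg
tara, near the start site, signal 203.8: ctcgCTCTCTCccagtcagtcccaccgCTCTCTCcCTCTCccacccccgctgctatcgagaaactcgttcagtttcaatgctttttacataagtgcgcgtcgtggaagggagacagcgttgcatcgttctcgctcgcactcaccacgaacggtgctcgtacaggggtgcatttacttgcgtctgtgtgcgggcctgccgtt
hth, intron, signal 197.5: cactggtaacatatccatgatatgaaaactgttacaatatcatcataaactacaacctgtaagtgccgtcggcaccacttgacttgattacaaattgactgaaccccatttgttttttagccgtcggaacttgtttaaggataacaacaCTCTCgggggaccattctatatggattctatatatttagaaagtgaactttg
spen, intron, signal 225.1: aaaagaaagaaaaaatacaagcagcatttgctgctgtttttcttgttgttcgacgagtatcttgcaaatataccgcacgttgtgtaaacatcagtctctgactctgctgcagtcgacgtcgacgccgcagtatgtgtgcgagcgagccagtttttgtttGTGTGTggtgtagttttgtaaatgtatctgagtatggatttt
Kdm2, near a start site, signal 151.5: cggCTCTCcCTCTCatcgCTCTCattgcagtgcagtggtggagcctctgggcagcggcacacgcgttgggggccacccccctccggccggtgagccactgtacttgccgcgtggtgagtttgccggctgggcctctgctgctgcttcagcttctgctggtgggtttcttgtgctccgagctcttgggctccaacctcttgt
Kdm2, intron, signal 72.88: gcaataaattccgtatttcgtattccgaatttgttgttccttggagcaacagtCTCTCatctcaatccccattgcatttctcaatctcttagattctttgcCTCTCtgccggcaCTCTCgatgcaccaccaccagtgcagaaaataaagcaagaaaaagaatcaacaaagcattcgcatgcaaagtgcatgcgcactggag
Kdm2, intron, signal 156.5: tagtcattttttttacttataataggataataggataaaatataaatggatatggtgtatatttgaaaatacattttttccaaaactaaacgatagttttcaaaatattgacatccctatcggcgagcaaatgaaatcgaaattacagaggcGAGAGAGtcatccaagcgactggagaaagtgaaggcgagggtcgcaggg

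In dm6 these windows are 2L:481040-481240 for ush, X:2137256-2137456 for ph-p, 3R:28585401-28585601 for fkh, X:6853481-6853681 for CG14434, 3R:16242580-16242780 for tara, 3R:10612770-10612970 for hth and 2L:166653-166853 for spen. The Kdm2 windows are 3R:9053083-9053283, 3R:9056417-9056617 and 3R:9057532-9057732. The windows at ush and ph-p, the strongest of the 10 regions printed, held none of the 3 motifs. Of them the window at fkh held only GCCAT. The windows of tara, hth and Kdm2 held GAGAG. Those of CG14434 and spen held GTGTGT.

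Most clusters were short. They held 4 to 22 summits with a median of 5; 81 clusters had exactly 4, and 18 had 10 or more and together held 232 of the 1153 members. From first to last summit a cluster spanned 1628 to 23256 bp, with a median of 5482 bp, and the 196 spans summed to 1221 kb. Neighbouring summits were a median of 1122 bp apart (199 to 3000 bp), and 416 of the 957 gaps (43.5%) were under 1000 bp.

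**Figure D1:**
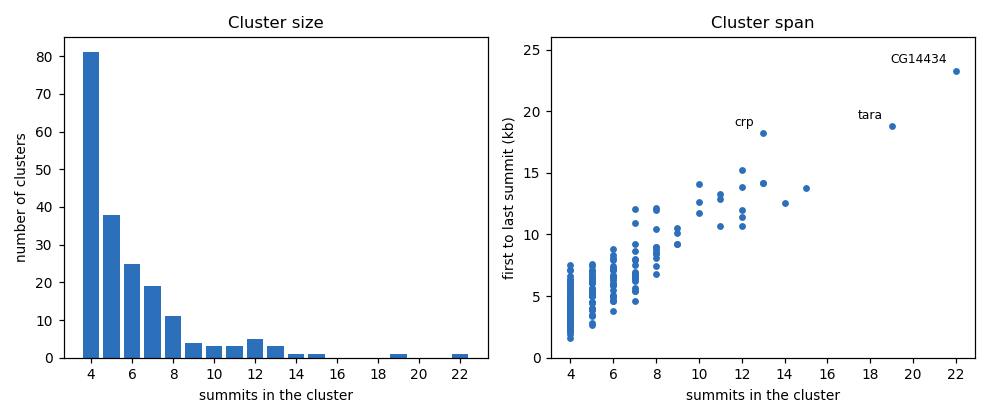
Left, number of clusters (y axis) by the number of strong summits they hold (x axis). Right, distance from first to last summit in kb against the number of summits, one point per cluster; the clusters at CG14434 (23.3 kb), tara (18.8 kb) and crp (18.2 kb) have the largest spans.

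Some neighbouring summits lay close enough to be parts of one broad region. In 45 places, in 40 clusters, neighbouring summits were under 250 bp apart, and 45 neighbouring regions overlapped. Of the 45 weaker summits of these pairs, 38 had a summit within 100 bp in replicate 2 and 23 had one in replicate 4. Merging overlapping regions left 181 clusters with 1061 summits.

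The edge of the selection was narrow. The weakest members were at 55.02 (beside lncRNA:CR45585), 55.023 (CG6424) and 55.024 (ras), and 37 members were under 56. The spans also held 631 candidates under the threshold, of which the highest reached 54.967 (in lncRNA:CR43334), 54.773 (in Lk6) and 54.767 (in InR). The smallest gap that ended a chain was 3006 bp.

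The cluster with most summits and the largest span, at X:6852733-6875989, covered CG14434, CG43736 and lncRNA:CR45531. CG14434 and CG43736 are named here only by their identifiers. Its first 7 summits, at the CG14434 start site and in introns, had signals of 114.5, 200.1, 122.9, 184.4, 67.4, 73.1 and 111.4. The next 6, over lncRNA:CR45531 and the region beyond it, had 84.9, 59.8, 60.2, 92.2, 121.5 and 55.03. The last 9 had 63.4, 151.7, 69.3, 120.4, 100.5, 98.0, 73.3, 76.9 and 59.97. Stronger and weaker summits thus both occurred along the whole stretch, often in runs. Of these summits 7 were at promoters and 11 in introns, and the strongest was only rank 211 of the pooled list.

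The cluster at tara (3R:16231460-16250246) had 19 summits, all inside this gene of 34.7 kb. The gene encodes a SERTA-domain protein that was identified as a trithorax-group member and acts in the cell cycle. The strongest summit, 203.8, lay 136 bp from a tara start site and had a neighbour of 59.0 at 199 bp. On one side of this pair, from the outermost summit inward, the signals were 64.9, 69.96, 127.0, 74.4, 174.5, 80.9, 71.4, 76.6 and 121.4. On the other side they were 102.9, 66.8, 66.2, 83.7, 70.4, 76.0, 58.1 and 177.9. Only 2 of the 19 summits were at promoters, and 17 were in introns. A further chain of 4 summits in the same gene had signals of 119.2, 81.1, 125.4 and 70.4.

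At hth, which encodes a homeodomain cofactor of the Hox proteins, 15 summits spanned 3R:10605220-10619000. The signal was highest 14 bp from the hth start site (340.5) and next highest in a coding exon at the far edge of the chain (295.4). The 7 summits between that exon and the nearest pair before the start site had 78.5, 57.8, 69.2, 171.7, 59.2, 84.7 and 197.5. Weaker neighbours of 75.7 and 62.3 stood beside stronger summits, and 114.4, 190.9, 68.7 and 88.9 lay on the other side of the start site. A second chain inside hth had 5 summits with signals of 59.6, 112.8, 56.2, 85.9 and 58.0, so that 20 members lay in this gene of 132.0 kb.

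At spen, which encodes a transcriptional corepressor with RNA-binding domains, 14 summits ran from the start site into the gene (2L:159080-171667). The first, 48 bp from the start site, had 229.2. The 5 that followed in the 5' untranslated exons had 88.4, 150.5, 104.6, 104.0 and 64.4. The 8 in introns had 138.5, 106.8, 68.9, 225.1, 56.5, 62.2, 84.7 and 97.9. The intronic summit at 225.1 was nearly as strong as the one at the start site, although it lay 7721 bp away from it.

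The cluster named for CG4004 (X:12742407-12756591) had 13 summits between Smr, which encodes a nuclear receptor corepressor, and the long noncoding RNA genes lncRNA:Vinr and lncRNA:CR44619. From the Smr start site onward the signals were 127.1, 58.7, 71.7, 74.2, 90.1, 117.8, 62.7, 160.4, 206.5, 265.8, 178.8, 63.1 and 61.6. The strongest 4 were consecutive, and the start site nearest to each was that of lncRNA:CR44619. Smr itself carried 2 more clusters, with 9 summits (10.6 kb, strongest 153.9) and 5 summits (5.32 kb, strongest 175.7).

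At crp, which encodes a basic helix-loop-helix leucine zipper transcription factor, 13 summits spanned 2L:16269625-16287818. The strongest, 264.2, was at the end of the chain away from the crp start site and 7484 bp from the nearest start site of any gene. The next 9 had 117.0, 120.7, 56.3, 61.2, 64.5, 61.1, 61.3, 71.1 and 76.2, and the 3 nearest to the crp start site had 101.7, 120.8 and 117.6. The middle of this cluster was thus lower than both ends. A cluster at atos on 2R also had 13 summits but no signal above 110.3. Its summits lay between 56.1 and 110.3, 11 of them in introns.

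The strongest single region of the set lay at 2L:480944-481250, in a chain of 11 summits over ush and cbt (2L:479151-492444). ush encodes a zinc-finger partner of GATA factors and cbt a zinc-finger transcription factor. That region had a signal of 808.9, rank 3 in the pooled list, rank 2 in replicate 2 and rank 10 in replicate 4. It lay in an intron of ush, 1452 bp from the cbt start site. The other summits of the chain had 113.8, 243.2, 110.1, 59.9, 62.1, 215.5, 58.8, 113.2, 71.4 and 66.3, so the strongest was more than 3 times any of its neighbours.

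**Figure D2:**
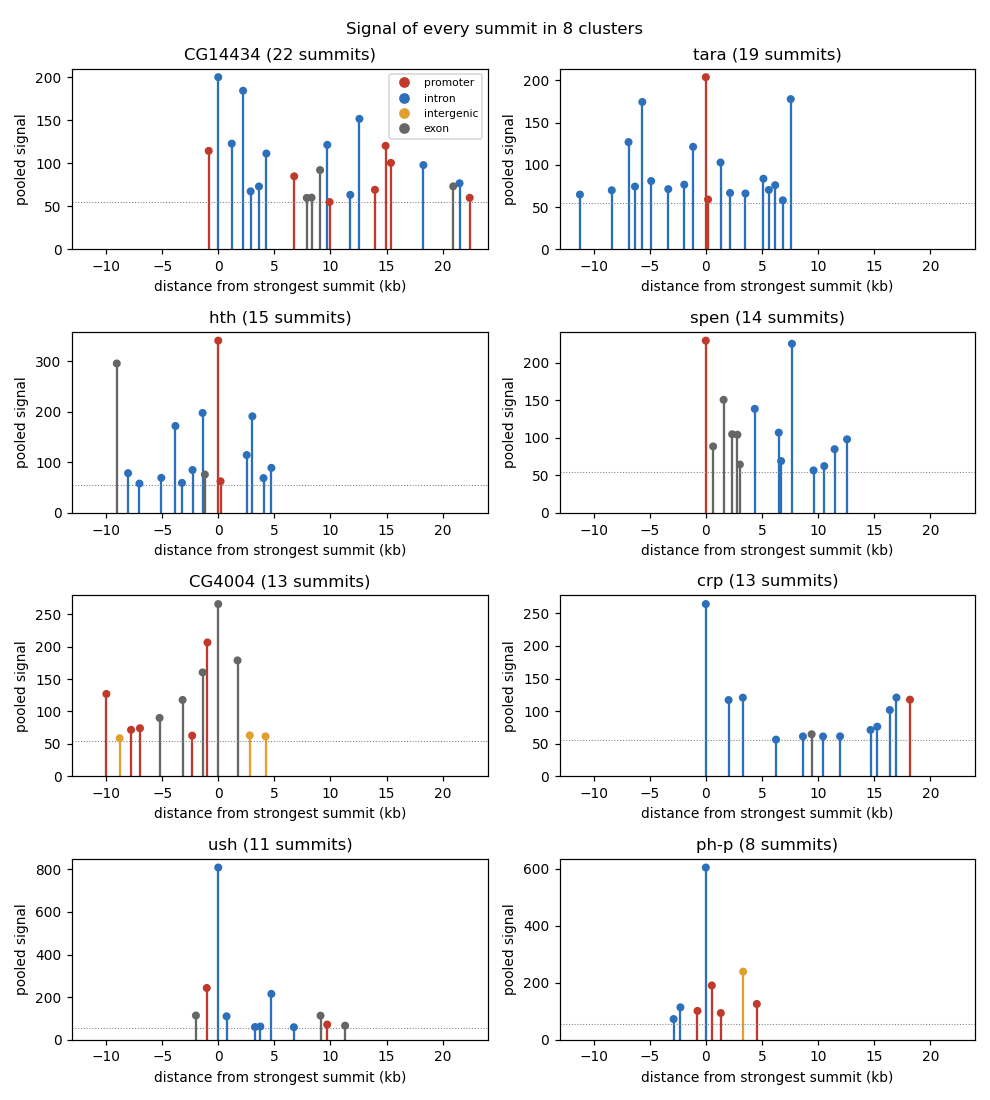
Pooled signal (y axis, scale set per panel) of all summits in 8 clusters against the distance in kb from the strongest summit of that cluster; colours give the annotation under the summit, and the dotted line is the threshold of 55. The clusters at tara and hth have their strongest summit at a promoter, those at ush (808.9) and ph-p (603.9) in an intron, and single dominant summits stand out at ush, ph-p and crp.

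The strongest regions after the one at ush were spread over different genes. They were 731.2 in an intron of sbb, 701.3 at the CG1888 promoter, 603.9 at ph-p, 533.8 at 237 bp from the fkh start site and 515.5 in an intron of Lk6. Further regions were 462.3 in the cluster at aqz, 449.7 in that at brwl, 447.9 at 38 bp from the emc start site and 418.1 beside lncRNA:CR45643. With the one at ush, these 10 regions held ranks 3 to 30 of the pooled list, ranks 2 to 44 in replicate 2 and ranks 5 to 44 in replicate 4. sbb encodes a zinc-finger corepressor, fkh a fork head transcription factor, emc a helix-loop-helix inhibitor of proneural factors and Lk6 a protein kinase of translation initiation factors.

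Genes of the Polycomb and trithorax groups were among the clustered ones. Of 25 such genes with a strong region anywhere, 10 had a clustered region, against 336 of all 3332 genes with a strong region (10.1%). All 10 were the lead gene of a cluster, that is, no other gene held or started beside more of its summits. A lead gene need not hold most of them: psq had 2 of the 5 summits in its cluster, noc 3 of 7, foxo 3 of 7, scyl 4 of 12 and Antp 2 of 6. The counts and spans given below with a gene are those of the cluster it leads. The lists of genes were chosen with results of these data known, and no test was made of this share. tara, described above as a trithorax-group member, was not on this list and is not in these counts. The genes placed on the Polycomb side here were ph-p and Psc, subunits of Polycomb repressive complex 1, and jing, which encodes a zinc-finger protein.

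At ph-p, 8 summits over 7.41 kb had signals of 72.5, 113.7, 101.1, 603.9, 190.3, 93.7, 238.8 and 125.4. Of these, the 7 with signals of 93.7 or more passed the authors' reproducibility threshold, more than in any other cluster of 8 summits. Passing followed the pooled signal, as described below, so this count is no separate evidence of reproducibility. Psc had 6 summits over 5.47 kb, all in introns, with a strongest signal of 105.1. jing had 4 summits over 2.43 kb with a strongest signal of 121.6.

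On the trithorax side, Trl had 6 summits over 7.13 kb with signals of 59.5, 92.5, 109.0, 276.0, 87.6 and 132.7. The strongest of them was rank 34 in replicate 2 but rank 7500 in replicate 4, so the replicates differed widely there. kis, which encodes a chromatin remodeller, had 7 summits over 6.62 kb with a strongest signal of 102.3. trx, which encodes a histone H3 lysine 4 methyltransferase, had 4 over 3.63 kb (strongest 150.5). osa, a subunit gene of the Brahma remodelling complex, had 5 over 3.91 kb (strongest 185.2). tna, another trithorax-group gene, had 5 over 4.02 kb (strongest 163.7). psq, which encodes a GAGA-binding protein and is not placed on either side here, had 5 over 7.05 kb (strongest 145.0).

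Kdm2, which encodes a histone demethylase, is not placed on either side here. It had 6 summits over 5.08 kb with signals of 56.5, 151.5, 64.6, 78.6, 72.9 and 156.5. These are the windows that all held GAGAG. The summit of 151.5 near its start site had no summit within 100 bp in replicate 2 and was rank 285 in replicate 4.

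Among 91 developmental transcription factor genes with a strong region, 19 (20.9%) had a clustered one. Genes covered only by the left-out Hox chains could not count as clustered, although the totals take all genes with a strong region. Besides hth, ush, cbt, sbb, fkh and emc these included zfh2, tsh, noc, mirr, lola, rib, chinmo, Doc1, pan, ci, jing, tna and Antp. zfh2, a homeodomain and zinc-finger gene on chromosome 4, had 12 summits over 10.7 kb, with 262.5 upstream of the gene and 200.6 at its start site as the highest. rib had 10 summits over 11.7 kb (strongest 150.1). lola had 7 over 6.71 kb (188.4), noc 7 over 6.62 kb (198.4), tsh 6 over 3.83 kb (110.8) and chinmo 6 over 8.33 kb (147.9). mirr had 5 over 7.16 kb (218.9), and Doc1 had 5 over 3.45 kb (87.6). The chain at Antp, with 6 summits over 4.63 kb, lies at the edge of the left-out Antennapedia stretch, and its first region reaches into that stretch.

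Of 43 signalling genes with a strong region, 13 (30.2%) had a clustered one, and all 13 led a cluster. InR, the insulin receptor gene, was the only gene that led 3 clusters. Its 16 summits had 90.1, 65.7, 64.7, 84.4 and 289.2 in the first, 64.9, 101.1, 66.7 and 78.3 in the second, and 63.6, 171.1, 59.0, 103.9, 94.0, 123.4 and 175.7 in the last. The clusters with 289.2 and 175.7 had these strongest summits 647 and 58 bp from InR start sites, and the middle cluster lay far inside the gene.

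The signalling genes aop, pnt and sty act in the Ras pathway. aop, an ETS-domain repressor gene, had 4 summits over 3.01 kb (149.0) and 5 over 3.90 kb (151.3). pnt, an ETS-domain activator gene, had 4 over 5.18 kb (111.3) and 5 over 5.11 kb (78.5). sty, a feedback inhibitor gene, had 7 over 5.66 kb (215.8).

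The others act in several further pathways. Dad, an inhibitory Smad gene, had 5 summits over 5.11 kb (176.6). Socs36E, an inhibitor gene of JAK-STAT signalling, had 5 over 6.98 kb (184.1). ptc, the Hedgehog receptor gene, had 4 over 4.95 kb (123.5), nkd, a Wingless antagonist gene, 4 over 2.64 kb (92.3), and fz3, a frizzled-family gene, 4 over 3.89 kb (67.0). foxo, a transcription factor gene of insulin signalling, had 7 over 6.53 kb (213.8). wts, the Hippo pathway kinase gene, had 4 over 6.26 kb (147.8), Pdk1 4 over 3.33 kb (174.2) and Lk6 7 over 5.40 kb (515.5).

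Of 12 cell cycle and growth genes with a strong region, 5 had a clustered one. E2f1, a cell cycle transcription factor gene, had 7 summits over 8.65 kb (114.5), and CycG had 6 over 5.90 kb (104.2). scyl and chrb encode related inhibitors of TOR signalling. The cluster led by scyl had 12 summits over 11.96 kb (224.3), of which 4 lay in or beside scyl, and that led by chrb had 6 over 7.15 kb (193.3). trbl had 4 over 4.11 kb (83.1). Of 10 stress response genes, cact (6 over 7.27 kb, 84.2) and cnc (7 over 7.90 kb, 106.4) had clustered regions.

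Other groups were at or under the share for all genes. Of 64 cytoplasmic ribosomal protein genes with a strong region, 6 (9.38%) had a clustered one. Of them only RpS23 led its cluster (4 summits over 4.95 kb, strongest 173.0). Of 13 translation factor genes, eIF4A alone had one. None of the 11 ecdysone cascade genes with a strong region had a clustered one. Their median length was 39.9 kb, and 4 symbols of this list matched no annotated gene.

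Noncoding genes were also covered. Of 275 long noncoding RNA genes with a strong region, 70 (25.5%) had a clustered one, and 9 of these led a cluster. lncRNA:CR43334 led 2 clusters, with 5 summits over 4.43 kb (198.9) and 8 over 11.9 kb (110.7). lncRNA:CR45643 led one of 5 summits over 3.47 kb (418.1), between the clusters at CG6126 and tara. Of 17 microRNA genes, mir-14, mir-8, mir-967, mir-4962 and mir-9377 had a clustered region within the gene or 500 bp of its start.

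Long genes held clusters more often. Among protein-coding genes with a strong region, a clustered region was found in 74 of 1480 (5.00%, Clopper-Pearson 95% interval 3.95 to 6.24%) genes under 5 kb. The share was 97 of 969 (10.01%, 8.19 to 12.1%) from 5 to 20 kb, 57 of 365 (15.6%, 12.1 to 19.8%) from 20 to 50 kb and 29 of 169 (17.2%, 11.8 to 23.7%) at 50 kb or more. The 169 protein-coding lead genes had a median length of 17.9 kb, against 4.74 kb for the 2726 coding genes whose strong regions were all outside clusters. A lead gene is the one with most summits of its cluster, and the last ties went to the longer gene. The length of lead genes is therefore partly built into their choice. The 257 coding genes with a clustered region also include genes that led no cluster, which this median leaves out. The median lengths of the listed groups with a strong region were 12.2 kb for the Polycomb and trithorax genes, 15.5 kb for the transcription factors, 21.8 kb for the signalling genes and 1.37 kb for the ribosomal protein genes. They were 6.18 kb for the cell cycle and growth genes, 1.02 kb for the long noncoding RNA genes and 0.095 kb for the microRNA genes. Some of the noncoding genes lie inside longer genes, such as mir-4962 in Tlk (69.8 kb) and lncRNA:CR43963 in Smr (58.4 kb). A summit there counts for both genes, so the length of such a gene does not describe the stretch that held the cluster. Among coding genes length moved with membership, and its part in the shares of the gene groups was not tested. Among genes of 20 kb or more, 6 of 8 Polycomb and trithorax genes, 10 of 35 transcription factors, 6 of 22 signalling genes and 0 of 9 ecdysone genes had a clustered region.

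**Figure D3:**
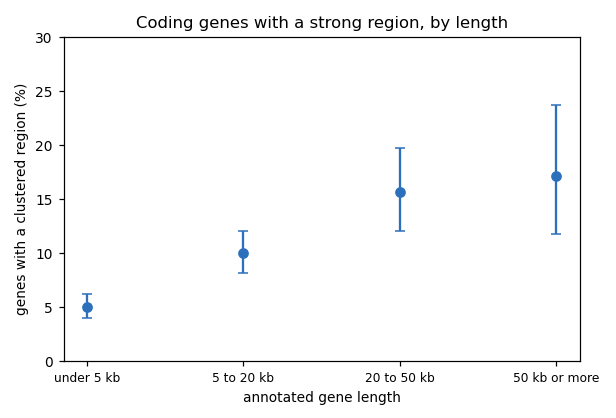
Share of protein-coding genes with a strong region that also had a clustered region (y axis, %), by annotated gene length (x axis); bars are Clopper-Pearson 95% intervals, which treat genes as independent. The share goes from 5.00% under 5 kb to 17.2% at 50 kb or more.

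The 196 clusters were led by 182 genes, of which 169 were protein-coding, and 13 genes led more than 1 cluster. In 103 clusters the lead gene held, or started beside, all summits. A further 6 clusters had no summit in or beside a gene and were named by the nearest start site. Besides InR, hth, tara, Smr, aop, pnt, sbb and lncRNA:CR43334, the genes with 2 clusters were Bsg, Tis11, Tlk, brat and simj. brat, a translational repressor gene, had 7 summits over 10.9 kb and 8 over 8.12 kb, with strongest signals of 142.8 and 163.1. Some clusters lay near each other: 31 were under 20 kb from the next.

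All large chromosome arms had clusters. 2L held 28 clusters with 174 members, 2R 38 with 208, 3L 38 with 209, 3R 63 with 370 and X 25 with 165. The small chromosome 4 held 4 clusters with 27 members, at ci, at pan and RpS3A, at Asator and at zfh2. The share of strong regions that were clustered was 19.3% on 2L, 20.4% on 3L, 20.9% on X, 21.9% on 2R, 26.1% on 3R and 27 of 54 on chromosome 4.

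Clustered summits lay away from promoters more often than the other strong summits. With a promoter taken as 500 bp on either side of an annotated start site (Ensembl release 115), 344 of 1153 members (29.8%, 27.2 to 32.6%) were at promoters, against 2158 of 3984 (54.2%, 52.6 to 55.7%) other strong regions and 28.1% of all candidates. Introns held 560 members (48.6%), 32.0% of the other strong regions and 39.9% of all candidates. Intergenic DNA held 141 members (12.2%), above the 9.71% of the other strong regions and below the 15.8% of all candidates. The median distance to the nearest start site was 1382 bp for members and 354 bp for the others. No test was made of these shares, since regions of one cluster are not independent. Outside promoters, introns took 69.2% of members and 69.8% of the other strong regions.

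The promoter share was lower in chains with more strong summits. Chain length was used by the selection, and several summits spread over kilobases cannot all lie at the same start site, so this order is partly built into the rule and is given as a description. It was 59.2% (57.0 to 61.2%) for 2164 lone summits, 54.1% for pairs, 44.5% for chains of 3, 33.7% for chains of 4 or 5, 29.5% for 6 to 9 and 22.0% (16.8 to 27.9%) for 10 or more. Chains within the left-out stretches are not in these counts. The intervals treat regions as independent, and regions of one chain are not, so they are too narrow.

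Within a cluster the strongest summit was the one most often at a promoter. This held for 96 of 196 strongest summits (49.0%, 41.8 to 56.2%), 64 of 196 second strongest (32.7%, 26.1 to 39.7%) and 184 of 761 lower ones (24.2%, 21.2 to 27.4%). In all, 165 clusters had a promoter summit and 31 had none. Among those without one were Psc, cact, cic, rdx and stx, each with all of its 5 to 9 summits in introns.

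**Figure D4:**
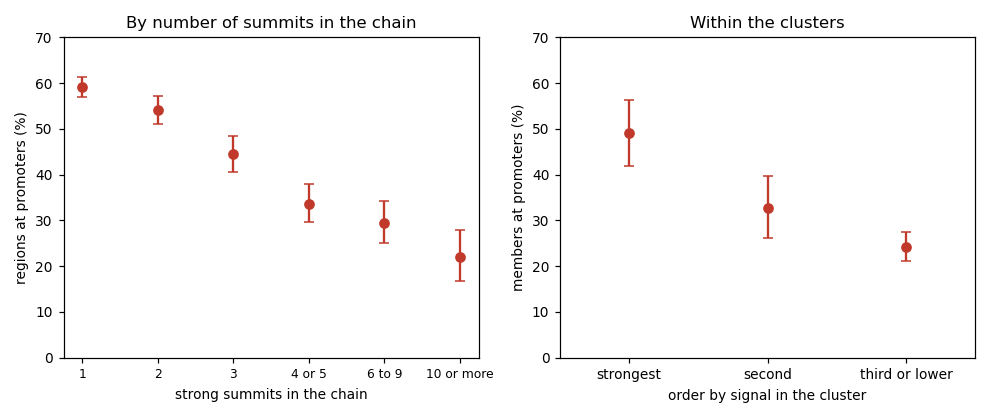
Share of regions within 500 bp of an annotated start site (y axis, %). Left, strong regions by the number of strong summits in their chain; right, clustered regions by order of signal within the cluster; bars are Clopper-Pearson 95% intervals. The share goes from 59.2% for lone summits to 22.0% in chains of 10 or more, and from 49.0% for the strongest to 24.2% for the summits below the second of a cluster.

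Membership as a whole went with little difference in signal. The median was 78.5 for members and 74.7 for the other strong regions, whose maximum of 1593 exceeded the 808.9 of the members. Outside the left-out stretches the median was 74.8 for lone summits, 74.1 in pairs and 75.17 in chains of 3. It was 75.82 in chains of 4 or 5, 78.55 in chains of 6 to 9 and 83.81 in chains of 10 or more. These values were used for the selection and are a description. The authors' thresholded list, made from the replicates by the irreproducible discovery rate, kept 30.5% of all strong regions, 382 members (33.1%) and 1185 other strong regions (29.7%). Passing followed the pooled signal that the selection used. The lowest signal in that list was 92.53, and a member at 92.159 was not in it. The shares and counts of passed regions therefore describe signal and do not measure reproducibility. A cluster had at most 10 regions that passed (CG14434), 32 clusters had none, 26 had 4 or more, and no cluster had all its regions pass.

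The replicates were compared by rank, since their signal scales need not match. A summit within 100 bp was present in replicate 2 for 986 members (85.5%), in replicate 4 for 1018 (88.3%), in both for 864 (74.9%) and in neither for 13. The other strong regions had 88.3%, 91.1% and 80.2%. The top 5137 of each replicate's own list, the number called strong in the pooled one, held 719 members (62.4%) in replicate 2, 822 (71.3%) in replicate 4 and 497 (43.1%) in both, against 61.1%, 69.3% and 41.4% of the other strong regions. The pooled list was made from the same 2 replicates and all lists share 1 control, so these shares are not independent evidence.

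Ranks of single members differed between replicates. Over the 864 members matched in both, Spearman's rho between the ranks was 0.39, given as a description of regions that share libraries and neighbours. The ranks were more than 10-fold apart for 65 of them (7.52%), against 6.51% of the other strong regions. The strongest summit of a cluster was among the strongest candidates of replicate 2 in 172 of 196 clusters (87.8%) and of replicate 4 in 184 (93.9%). Summits below the second reached 52.8% and 63.3%.

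**Figure D5:**
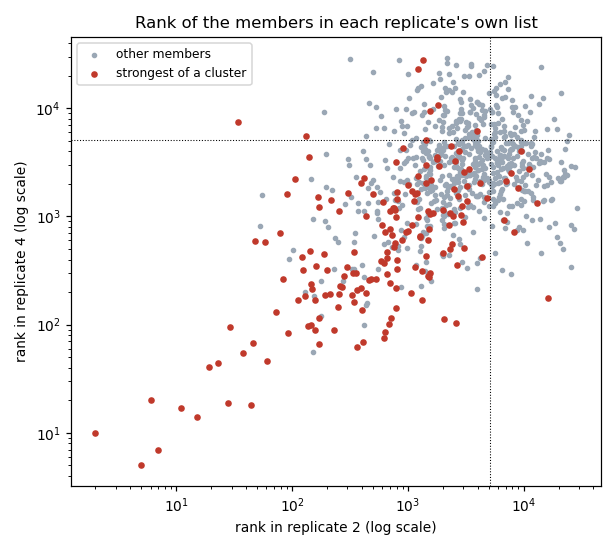
Rank of each of the 864 members matched in both replicates, in the list of replicate 2 (x axis, log scale) and of replicate 4 (y axis, log scale); 1 is the strongest candidate and dotted lines mark rank 5137. Strongest summits of a cluster, in red, lie mostly toward the lower left, and the lower summits spread across both lines.

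Not all of the 196 clusters kept 4 strong summits when matched within one replicate. A cluster of exactly 4 summits, as 81 were, fails this count if any of them is unmatched or weaker. At least 4 of a cluster's summits were among the 5137 strongest in replicate 2 for 85 clusters, in replicate 4 for 107, in both for 66 and in neither for 70. All summits were matched in 79 and 94 clusters. When the same rule was applied to one replicate's own 5137 strongest candidates, replicate 2 gave 215 clusters that shared ground with 131 of the 196, and replicate 4 gave 193 that shared ground with 138.

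The 13 members with no summit within 100 bp in either replicate were not all weak. The highest was 268.9 in the cluster at aqz, where the nearest summits were 156 bp away in replicate 2 and 107 bp in replicate 4. At zfh2, a summit of 94.0 had its nearest at 118 bp in both. Except one summit near eff, with its nearest replicate 2 summit at 929 bp, all had a summit within 230 bp in each replicate.

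Motifs were searched on both strands within 100 bases of each summit. GAGAG was present at 444 members (38.5%, 35.7 to 41.4%), 33.9% of the other strong regions and 28.3% of all candidates. The longer GAGAGAG, which contains GAGAG, was at 12.2%, 8.41% and 5.28%. GTGTGT, a repeat known from Polycomb response elements, was at 333 members (28.9%, 26.3 to 31.6%), 22.6% and 19.1%. GCCAT, the core recognised by Pleiohomeotic, was at 33.7%, 34.7% and 38.2%, and GAAAA at 62.7%, 65.4% and 59.1%. CAGGTAG, recognised by Zelda, was at 1.82%, 1.51% and 1.503%. A match is a string of letters and no evidence of binding, and no test was made.

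At promoters alone the difference in the repeats was larger. GAGAG was at 41.0% (35.7 to 46.4%) of the 344 clustered promoter summits and 32.5% (30.5 to 34.5%) of the 2158 others. GTGTGT was at 30.5% (25.7 to 35.7%) against 20.2% (18.5 to 21.9%). In introns GAGAG was at 40.2% (36.1 to 44.4%) of 560 members and 36.8% (34.1 to 39.5%) of 1275 others, so that the intervals overlap, and GTGTGT at 28.9% and 27.0%. In intergenic DNA GAGAG was at 30.5% of 141 members and 31.8% of 387 others, the opposite order. The median GC content of the windows was 45.8% for members and 44.3% for the others.

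Motifs known from constitutively active promoters were rare in all sets. TATCGATA, recognised by DREF, was at 14 members (1.21%, 0.665 to 2.03%) against 3.79% (3.22 to 4.43%) of the other strong regions and 1.48% of all candidates. GGTCACACT, recognised by M1BP, was at 11 (0.954%, 0.477 to 1.70%) against 2.66% (2.18 to 3.21%) and 0.977%. The members' shares were thus under those of the other strong regions and near those of all candidates. Within promoters the shares were 2.91% (1.40 to 5.28%) against 6.77% (5.74 to 7.91%) for the former and 2.91% (1.40 to 5.28%) against 4.68% (3.83 to 5.66%) for the latter, where the intervals overlap. In introns TATCGATA was at 0.714% of members and 0.157% of the others.

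At least 1 window held GAGAG in 178 clusters, more than 50% of the windows in 48, all windows in 1 and none in 18. It was at 38.5% of all members and each cluster had at least 4 windows. Its presence in most clusters therefore follows largely from that share. By order of signal it was at 42.9% of the strongest, 45.9% of the second and 35.5% of the lower summits of a cluster. By number of summits in a chain it was at 30.9% (29.0 to 32.9%) of lone strong summits, 34.4% in pairs, 41.5% in chains of 3, 37.0% in chains of 4 or 5, 42.3% in chains of 6 to 9 and 35.3% in chains of 10 or more. Its share was thus lowest for lone summits, and it did not go on increasing with chain length.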

How the data were processed

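The authors deposited region lists in dm6: 30000 candidates per replicate, a pooled list, and the 1567 pooled regions that passed their irreproducible discovery rate threshold. A text file that accompanies the deposited lists derives them from the replicates' alignments and 1 control alignment. For the aligner, peak caller, versions and threshold, nothing is given in the sources used here. The signal value in the lists the authors deposited has no stated scale and was used only within one list. The deposited −log10 q-value column was not used for any result. Read depth is unknown.

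Members and gene lists were chosen with earlier results of these data known. Summits were joined, annotated with Ensembl gene models and matched between lists by position (within 100 bp), and the ranks of matched summits were compared, using Python 3.11.15, pandas 2.3.3 and numpy 2.4.6. Intervals are exact binomial (Clopper-Pearson, 95%, scipy 1.17.1) and cover counting error only. Chaining was tested on simulated data. Clusters are named by their lead gene. All summit values are given for the 6 clusters with most summits (ties at 13 broken by the highest signal) and the one with the strongest region; other clusters are given by summits, span and strongest value, and the values printed for further clusters (ph-p, Trl, Kdm2, InR and the second chains of tara and hth) were chosen after they were seen. No p-value was computed. Alternatives covered the thresholds, distances, windows and each replicate alone.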

Additional observations from a re-analysis of the deposited data

How the results depend on the processing

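The number of clusters depended on the selection. It was 17 when the signal had to reach 92.53, the lowest of the thresholded list, 80 at a signal of at least 70, and 610 at 40 or more. With at least 3 summits it was 408 and with at least 5 it was 115. Joining summits within 2000 or 5000 bp, merging overlapping regions, and dropping the chain beside the Antennapedia stretch (an alternative added after seeing the data, which left 195) kept it between 143 and 261. One replicate alone gave 193 to 215 clusters.

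The promoter share of members was 39.3% at the thresholded signal, 32.7% at 5000 bp, 35.0% with at least 3 summits, 26.9% with at least 5, and 23.2% or 43.5% with promoters of 250 or 1000 bp. One replicate alone gave 29.5 to 31.6%. GAGAG was at 22.1% of windows reaching 50 bp and 59.3% of those reaching 200 bp from the summit, against 18.2% and 51.9% for the other strong regions, and at 36.8 to 38.9% for one replicate alone. Matching within 50 bp reduced the matched members to 63.4% in replicate 2 and 68.2% in replicate 4, and within 250 bp raised them to 96.7% and 98.96%. Clusters with at least 4 matched strong summits then numbered 54 and 117 in replicate 2, and 78 and 124 in replicate 4. Of 57 alternative values, 31 stayed within the limits set for no change and 26 moved. These limits were a fold range for counts and the exact binomial interval of the main value for shares. The range for counts was wide, as 143 and 261 clusters both stayed within it against 196. The tally therefore mixes unlike criteria. No paired analysis was possible because there is 1 group.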
